A study of Homo sapiens with 36 samples.

Results

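Epithelial lineage transcription factors, here the 10 genes TP63, KLF4, KLF5, GRHL2, OVOL1, GATA3, TFAP2A, TFAP2C, FOXC1 and SOX9, were followed across every library of the series. They were picked by name, with earlier results of these data known, and all 10 were found once each among the 60725 Ensembl genes of the tables. RNA was sequenced from 36 libraries in 18 groups of 2. In 10 groups the cells were MCF-10A ER-Src, an established human mammary epithelial line with a switchable oncogene, v-Src joined to the estrogen receptor's ligand-binding part, treated with ethanol as vehicle (ETH) or with tamoxifen (TAM), which switches v-Src on. The labels name tamoxifen with AZD0530, a Src-family kinase inhibitor, in a treatment text shared by all samples, and give no time of treatment. Under each treatment the cells had received a control siRNA (Ctrli) or a pool of siRNAs against YAP (YAPi), TAZ (TAZi, gene WWTR1), STAT3 (STAT3i) or JUNB (JUNBi). In 8 groups the cells were MDA-MB-231, an established triple-negative breast cancer line with no transformation status in its labels. Set 1 of these held Ctrli, YAPi, TAZi, YAP and TAZ siRNAs together (YAPi_TAZi) and siRNAs against the TEAD family (TEADi), and set 2 held its own Ctrli, JUNBi and STAT3i. All cells therefore carried a transfected siRNA, and all ER-Src cells, with either treatment, carried the v-Src fusion.

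These factors sit at the top of the programs that give epithelial cells their identity. TP63 encodes p63, which maintains the basal cells of stratified and glandular epithelia, and KLF4 and KLF5 are zinc finger factors tied to differentiation and to proliferation of epithelial cells. GRHL2 and OVOL1 keep junction genes on and mesenchymal genes off. GATA3 directs the luminal lineage of the breast, TFAP2A and TFAP2C are AP-2 factors of skin and mammary epithelium, and FOXC1 and SOX9 are linked to basal-like and progenitor cells. YAP and TAZ are co-activators that bind DNA through TEAD proteins, while JUNB is an AP-1 subunit and STAT3 a signal-activated factor.

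TP63, KLF4 and KLF5 carried most of the changes in ER-Src cells, so the 250 bases before their RefSeq gene starts (GRCh38.p14, gene strand, 5′ to 3′) are shown, with matches to 4 motifs in capitals. The motifs, searched on both strands, were the AP-1 site TGANTCA, the TEAD site GGAATG, the STAT site TTCNNNGAA and the GC-rich KLF box CCNCNCCC. The TP63 window is chr3:189631139-189631388 on the plus strand, the KLF4 window is chr9:107489770-107490019 on the minus strand, and the KLF5 windows for 2 annotated starts are chr13:73054726-73054975 and chr13:73058755-73059004 on the plus strand.
TP63: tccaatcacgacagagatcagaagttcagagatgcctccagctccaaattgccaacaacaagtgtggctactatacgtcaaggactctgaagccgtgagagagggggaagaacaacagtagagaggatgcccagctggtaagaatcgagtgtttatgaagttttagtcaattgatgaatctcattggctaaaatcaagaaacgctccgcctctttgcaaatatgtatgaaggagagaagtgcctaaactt
KLF4: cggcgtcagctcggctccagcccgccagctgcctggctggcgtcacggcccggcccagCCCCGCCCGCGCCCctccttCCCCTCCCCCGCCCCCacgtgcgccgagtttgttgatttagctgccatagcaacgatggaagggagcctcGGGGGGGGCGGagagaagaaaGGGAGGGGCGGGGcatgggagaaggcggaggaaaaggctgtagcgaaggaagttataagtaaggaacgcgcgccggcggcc
KLF5, upstream start: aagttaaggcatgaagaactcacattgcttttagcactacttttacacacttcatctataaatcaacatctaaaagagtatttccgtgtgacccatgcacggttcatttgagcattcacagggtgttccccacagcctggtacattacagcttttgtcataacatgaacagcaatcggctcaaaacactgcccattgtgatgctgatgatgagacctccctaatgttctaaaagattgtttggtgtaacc
KLF5, downstream start: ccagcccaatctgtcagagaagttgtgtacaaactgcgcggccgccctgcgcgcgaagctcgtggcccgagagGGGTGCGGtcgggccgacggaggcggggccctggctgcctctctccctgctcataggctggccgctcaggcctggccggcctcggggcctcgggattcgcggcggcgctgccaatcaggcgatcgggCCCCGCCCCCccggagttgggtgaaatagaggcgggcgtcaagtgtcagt
No AP-1, TEAD or STAT match lay in any of these 4 windows, where 6.57%, 11.9% and 6.57% of 35114 RefSeq promoter windows of the same length held one. The KLF box, present in 53.4% of all windows, matched 10 times with overlaps before KLF4, 3 times before the downstream KLF5 start and not at all before the upstream KLF5 start or TP63. GC content was 44% for TP63, 69.2% for KLF4, and 40.8% and 70.8% for the upstream and downstream KLF5 starts. The TP63 window lies before the outermost start, so the internal promoter of the shorter isoforms is not in it, and values per gene cannot tell the TP63 isoforms apart. The KLF4 window lies before its RefSeq start but inside the gene span given below (chr9:107484852-107490482). Of the other members, FOXC1, TFAP2A and GATA3 also had entries in the promoter table. Among the 6 members with entries, GATA3 alone held matches to the TEAD or AP-1 letters, 1 of each, in windows of different starts. A match, or none, describes only these letters.

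The ER-Src libraries held 6419720 to 19161700 counts and the set 2 libraries 7290499 to 18076158. In set 1 the 2 Ctrli libraries held 13456784 and 13534560 counts, but the 8 knockdown libraries only 1411304 to 2784605. Set 1 also mixed libraries of unlike RNA content, called library type below. RNAs without a poly(A) tail (6 genes such as RN7SL1 and RMRP) took 8.71 to 11.8% of counts in its knockdowns and 0.0028 to 0.0041% in its Ctrli libraries, against 9.43 to 11.7% in ER-Src and 0.0036 to 0.0112% in set 2. Each targeted mRNA was at 15.9 to 44.9% of Ctrli in ER-Src, with only JUNB in ETH not called (adjusted p = 0.064, DESeq2). In MDA-MB-231 the targets were at 1.23 to 56.7%, TEAD1 being the highest. STAT3 under STAT3i in set 2, at 18.8%, got no adjusted p. The set 1 percentages are against Ctrli libraries of the other library type. TPM, a level scaled to each library's total and corrected for gene length, is used below to set genes side by side. Changes come from counts, because the median gene shifted on the TPM scale by log2 -0.5 to 0.42 between compared ER-Src groups and by -1.49 to -1.39 between set 1 knockdowns and their Ctrli. From ER-Src to MDA-MB-231 it shifted by 0.84 under YAPi and 0.67 under TAZi, so TPM levels of the 2 lines compare only roughly. Normalized read counts below are expected counts divided by DESeq2 size factors over all libraries of the cell line. Full and effective gene length differed by 49.0 bases in all ER-Src STAT3i and JUNBi libraries and by 49.47 to 49.49 in the other ER-Src libraries. Comparisons of STAT3i or JUNBi with Ctrli, YAPi or TAZi cross this split, which cannot be told apart from the siRNA.

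KLF5 was the most abundant member in ER-Src cells, and SOX9 and GRHL2 were the scarcest. KLF5 (chr13:73054976-73077541) ranged from 8.58 to 25.7 TPM over the 20 ER-Src libraries, with a median of 15.2. TP63 (chr3:189631389-189897276), TFAP2A (chr6:10393186-10419659) and TFAP2C (chr20:56629306-56639283) had medians of 3.25, 3.33 and 1.75 TPM. FOXC1 (chr6:1609915-1613897) and KLF4 (chr9:107484852-107490482) lay near 1 TPM, with medians of 1.02 and 0.855 TPM. GATA3 (chr10:8045378-8075198) had a median of 0.35 TPM, OVOL1 (chr11:65787063-65797214) of 0.15 TPM and SOX9 (chr17:72121020-72126416) of 0.075 TPM. GRHL2 had at most 2 counts in any of the 36 libraries, so no change in it could be measured. A count of 0 still allows 3 counts, which is 0.157 to 0.468 CPM (counts scaled to library size) in the ER-Src libraries and 1.08 to 2.13 in the set 1 knockdowns, and such limits cover counting error only.

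**Figure D1:**
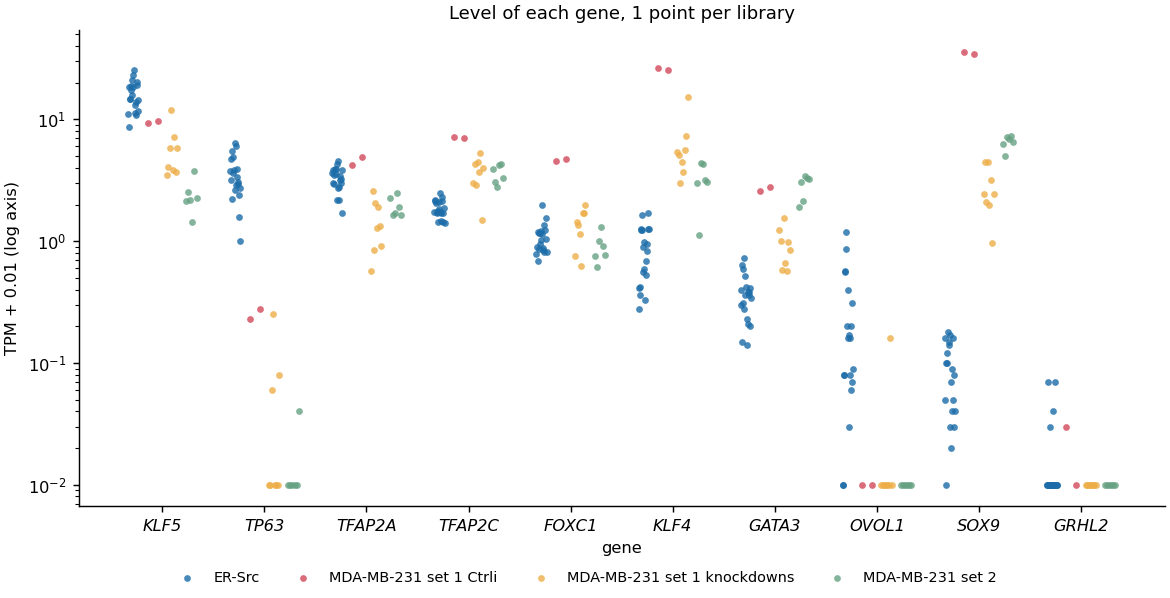
TPM of each gene (log axis, 0.01 added so that zeros can be drawn), 1 point per library, in the 20 ER-Src libraries, the 2 set 1 Ctrli, 8 set 1 knockdown and 6 set 2 libraries of MDA-MB-231. KLF5 and TP63 each reach their top in ER-Src libraries. SOX9 and KLF4 reach theirs in the set 1 Ctrli libraries, whose library type differs from that of the set 1 knockdowns.

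MDA-MB-231 had another order. TP63 was at 0.22 and 0.27 TPM in the set 1 Ctrli libraries, between 0 and 0.24 TPM in the set 1 knockdowns and at most 0.03 TPM in set 2. OVOL1 had no count in 15 of the 16 MDA-MB-231 libraries and 1 count in the other. SOX9 ran from 0.95 to 4.5 TPM in the set 1 knockdowns, 4.97 to 7.25 TPM in set 2 and 34.36 and 35.87 TPM in the set 1 Ctrli libraries, far above ER-Src throughout. KLF4 ran from 3.01 to 15.33 TPM in the set 1 knockdowns and from 1.12 to 4.35 TPM in set 2, the latter overlapping the ER-Src range of 0.27 to 1.71 TPM, and was at 25.7 and 26.37 TPM in the set 1 Ctrli libraries. Markers of the 2 lines went both ways. ER-Src libraries held the basal keratin KRT5 at 1010 to 2620 TPM and E-cadherin (CDH1) at 6.31 to 20.5 TPM, and MDA-MB-231 libraries held vimentin (VIM) at 369 to 2590 TPM with CDH1 at 0 to 1.03 TPM. Against that split, the mesenchymal markers SPARC (18.1 to 44.8 TPM), TWIST1 (3.30 to 8.33) and CDH2 (2.13 to 6.76) were higher in ER-Src than in every MDA-MB-231 library, and the epithelial claudin CLDN4, at 0.01 to 6.59 TPM in ER-Src, was at 12.9 to 90.0 TPM in MDA-MB-231. Of the luminal markers, KRT8 (30.1 to 104 TPM) and XBP1 (20.2 to 36.8) were well read in ER-Src, while KRT19 was at 0 to 1.42 TPM there and at 34.5 to 530 TPM in MDA-MB-231. KRT5 was at 5.99, 6.37, 11.49 and 8.07 TPM in the first replicate of the set 1 YAPi, TAZi, YAPi_TAZi and TEADi groups and at 0 in all other MDA-MB-231 libraries. TP63 had 0, 1, 0 and 0 counts in those same 4 libraries, and the part of such ER-Src-like reads in the values of other members was not tested.

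For the members above 1 TPM on average in ER-Src, the genes with the most similar pattern were found by Pearson's r of log2(TPM + 1) over the 10 ER-Src group means, among 6872 genes. TP63 was nearest to AMPD2 (r = 0.958) and TNS4 (0.951), and KLF5 to BTG1 (0.973) and SELENOM (0.961). TFAP2A was nearest to BBLN (0.919) and TSC2 (0.909), TFAP2C to GALK1 (0.872) and COL4A2 (0.867), and FOXC1 to AKAP17A (0.948). All points share library type and the TPM shifts given above, so these values are a description only.

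To see whether Src activation moved the members, TAM was compared with ETH in Ctrli cells. KLF5 rose 2.39-fold, and no other member passed the test. Its normalized read counts were 545.4 and 486.5 in ETH and 1271 and 1177 in TAM, so the groups did not overlap. The log2 change was 1.26 ± 0.16 (SE, n = 2 and 2, adjusted p = 1.6e-13, DESeq2), and it stayed past the threshold of 0.01 in every alternative run. Of 8 members tested, 1 was called, beside 5.88% of all genes tested. TP63 had 282.9 and 345.9 counts in ETH and 283.4 and 221.0 in TAM, overlapping ranges, with a log2 value of -0.30 ± 0.26 and a 95% interval of -0.81 to 0.21. FOXC1 was at 0.67 ± 0.40 and TFAP2C at 0.34 ± 0.33, neither past the test. SOX9 had 24 counts over the ETH pair and 4 over the TAM pair, a CPM ratio of 0.228 (95% interval 0.0574 to 0.662, counting error only), and did not pass the test (adjusted p = 0.64). The labels do not say whether replicates came from separate cultures, so p-values here and below measure only the spread between these libraries.

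Across the 5 siRNAs the estimated KLF5 response to TAM was largest in Ctrli, and the other lineage genes moved only in places. Under TAZi, KLF5 rose by 0.66 ± 0.15 (adjusted p = 1.2e-04) and TP63 fell by 0.92 on the log2 scale (SE 0.21, adjusted p = 3.4e-04), 2 of 9 members tested beside 7.34% of all genes. TP63 had 505.8 and 432.0 normalized counts in ETH TAZi and 239.5 and 256.5 in TAM TAZi, without overlap. Leaving out any 1 of these 4 libraries took the TP63 call away (adjusted p 0.02 to 0.13), and without TAM TAZi replicate 1, replicate 2 or ETH TAZi replicate 1 the KLF5 call was also lost (0.067, 0.099 and 0.042). No member was called under YAPi, where KLF5 stood at 0.54 ± 0.18 (adjusted p = 0.046) and 4.27% of all genes were called. The same held in DESeq2 for STAT3i (0 of 7, KLF5 0.31 ± 0.22) and JUNBi (0 of 9, KLF5 0.31 ± 0.25), beside 0.777% and 2.12% of all genes, and edgeR called none in these 3 comparisons either. At an unadjusted p under 0.05 stood TP63 and KLF5 under YAPi, none under STAT3i, and TP63 under JUNBi, where its log2 value was -1.04 ± 0.38.

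**Figure D2:**
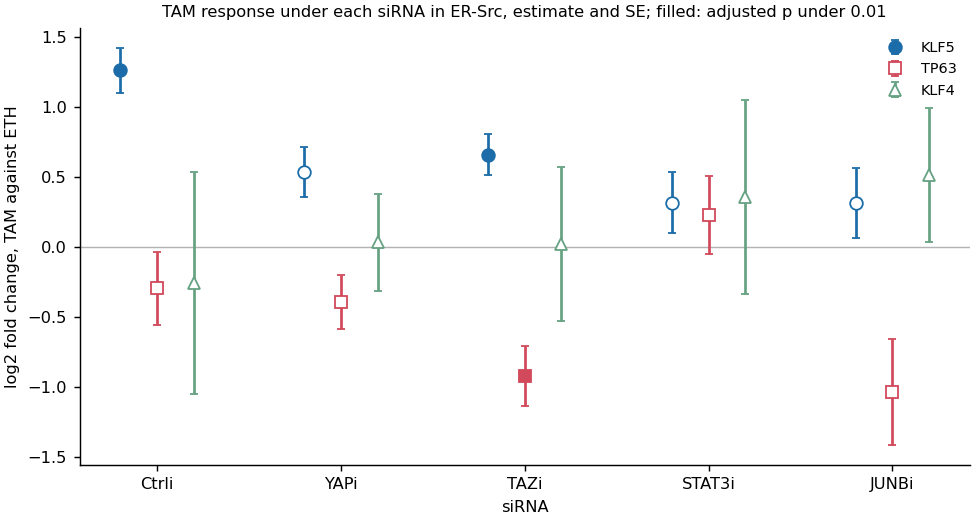
DESeq2 log2 fold change of TAM against ETH for KLF5, TP63 and KLF4 under each siRNA in ER-Src cells, with SE bars (n = 2 and 2), and filled marks where adjusted p was under 0.01. KLF5 is highest in Ctrli at 1.26 and filled also in TAZi at 0.66, and TP63 is filled only in TAZi at -0.92.

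YAP knockdown was set against Ctrli to see which members depend on YAP, and KLF4 and OVOL1 rose with either treatment. KLF4 had 20.5 to 27.7 normalized counts in the 4 Ctrli libraries and 83.3 to 120.0 in the 4 YAPi libraries, without overlap. It rose by 2.26 ± 0.52 in TAM (4.78-fold, adjusted p = 2.9e-04) and by 1.95 ± 0.47 in ETH (3.86-fold, adjusted p = 4.8e-04). OVOL1 went from 2 counts over the TAM Ctrli pair to 100 over the YAPi pair, and from 4 to 90 in ETH. As CPM ratios these are 28.3 (95% interval 7.63 to 237, counting error only) and 17.5 (6.61 to 65.7), both called (adjusted p = 0.0049 and 0.0012). In ETH, 2 further members rose under YAPi. KLF5 went from 545.4 and 486.5 to 848.0 and 1210 normalized counts (log2 0.98 ± 0.19, adjusted p = 4.3e-06) and TP63 from 282.9 and 345.9 to 508.2 and 502.2 (0.68 ± 0.20, adjusted p = 0.0059). In TAM, TP63 was at 0.61 ± 0.25 (adjusted p = 0.081) and KLF5 at 0.29 ± 0.15 (0.22), not called. These made 2 of 8 members tested in TAM, beside 10.2% of all genes, and 4 of 9 in ETH, beside 11.4%.

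KLF4 and OVOL1 had few reads in Ctrli, and their calls under YAPi were easily lost, for a cause that was not tested. Leaving out any single library of a comparison removed them, with KLF4 at adjusted p 0.026 to 0.23 in TAM and 0.028 to 0.17 in ETH, and OVOL1 at 0.024 to 0.23 in TAM and 0.016 to 0.82 in ETH, or not tested without TAM YAPi replicate 2. edgeR gave OVOL1 0.014 and 0.012, and a block by replicate number ended the KLF4 and OVOL1 calls in TAM. With the same block the 5 calls of all ETH knockdowns together became 3. The TP63 rise in ETH was lost without any 1 library (0.073 to 0.41) and with effective lengths as offsets (log2 0.44, adjusted p = 0.19), and the KLF5 rise without ETH YAPi replicate 2 or ETH Ctrli replicate 2 (0.02 and 0.022). OVOL1 exons overlap a long noncoding gene on the other strand (at most 0.27 TPM) and the strand setting of the counting is not given in the sources used here, so its reads are partly uncertain.

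**Figure D3:**
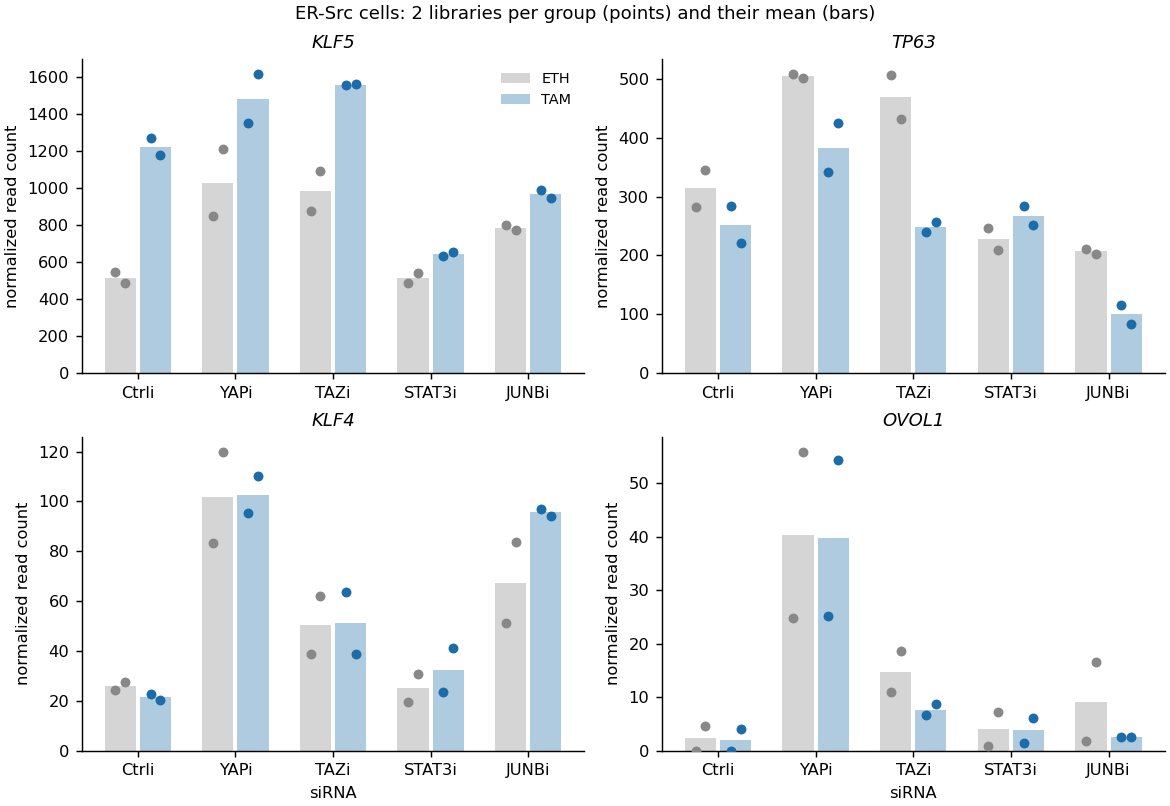
Normalized read counts of KLF5, TP63, KLF4 and OVOL1 in ER-Src cells under each siRNA, in ETH (grey) and TAM (blue), with 2 libraries per group as points and their mean as bars. KLF4 and OVOL1 stand highest under YAPi in both treatments, apart from KLF4 under JUNBi in TAM at 94.2 and 97.1, and TP63 is lowest under JUNBi in TAM.

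TAZ knockdown raised KLF5 in ETH, and no other member was called with either treatment. KLF5 had 877.6 and 1094 normalized counts in ETH TAZi, above both ETH Ctrli libraries, a log2 change of 0.93 ± 0.17 (adjusted p = 8.2e-06). It was 1 of 7 members tested in ETH, beside 5.28% of all genes, and was lost without ETH TAZi replicate 2 (0.062) or either ETH Ctrli library (0.015 and 0.046). In TAM, KLF5 counts were 1557 and 1561, its highest group mean, at 0.35 ± 0.13 against Ctrli (95% interval 0.10 to 0.60, adjusted p = 0.09). There 0 of 7 members passed in DESeq2 and 0 in edgeR, with KLF5 alone at an unadjusted p under 0.05, beside 3.22% of all genes called. KLF4 had 38.6 to 63.8 normalized counts in the 4 TAZi libraries, above the 20.5 to 27.7 of Ctrli, yet at 1.24 ± 0.65 in TAM and 0.94 ± 0.62 in ETH it did not pass. OVOL1 had 17 and 22 counts over the TAM and ETH TAZi pairs, ratios to Ctrli of 5.25 (1.25 to 46.9) and 7.14 (2.42 to 28.5), and got no adjusted p.

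KLF5 was lower under STAT3i than in Ctrli in TAM, a comparison that crosses the gene length split given above. Its normalized counts were 630.8 and 653.8 in TAM STAT3i, nearer to the 2 ETH Ctrli libraries and under the 1271 and 1177 of TAM Ctrli. KLF5 fell by 0.91 on the log2 scale (SE 0.16, adjusted p = 1.9e-07), 1 of 7 members tested beside 8.09% of all genes, and the call was lost only without TAM Ctrli replicate 1 (log2 -0.84, adjusted p = 0.017). In ETH the KLF5 value was near 0 (487.7 and 542.4 counts against 545.4 and 486.5), and 0 of 9 members were called in DESeq2 and 0 in edgeR, none at an unadjusted p under 0.05, beside 0.179% of all genes. TP63 was at 0.10 ± 0.26 in TAM (interval -0.41 to 0.60) and at -0.45 ± 0.27 in ETH.

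Under JUNBi in TAM, TP63 was lower and KLF4 higher than in Ctrli, across the same gene length split. TP63 had 116.7 and 84.0 normalized counts in TAM JUNBi, under all 18 other ER-Src libraries, and fell by 1.31 (SE 0.32, 0.402 of Ctrli, adjusted p = 0.0011). KLF4 had 97.1 and 94.2 counts against 22.6 and 20.5, a rise of 2.17 ± 0.54 (4.49-fold, adjusted p = 0.0014). These were 2 of 6 members tested, beside 6.71% of all genes, and a block by replicate number ended both calls. KLF5 was also lower, with 991.2 and 945.0 normalized counts in TAM JUNBi against 1271 and 1177 in TAM Ctrli. It was at an unadjusted p under 0.05 in DESeq2 but was not called. In ETH the corresponding values were -0.62 ± 0.32 for TP63 (211.8 and 202.2 counts) and 1.36 ± 0.62 for KLF4 (51.2 and 83.6 counts). There 0 of 8 members passed in DESeq2 and 0 in edgeR, beside 2.76% of all genes, with KLF4 and KLF5 at an unadjusted p under 0.05 and JUNB itself still at 44.9% of Ctrli. Without any 1 of the 4 TAM libraries both calls were lost (TP63 at 0.028 to 0.32, KLF4 at 0.057 to 0.3, or not tested without TAM JUNBi replicate 2), and KLF4 also with effective lengths (1.97, adjusted p = 0.012).

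**Figure D4:**
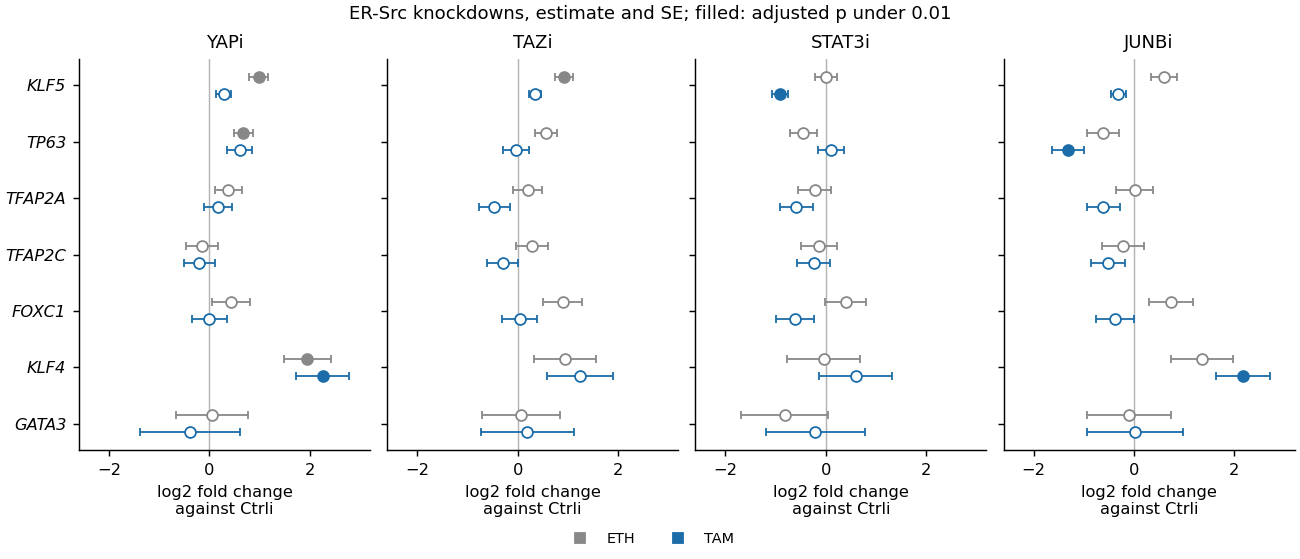
DESeq2 log2 fold changes against Ctrli with SE bars for 7 members in ER-Src cells, ETH in grey and TAM in blue, filled where adjusted p was under 0.01 (n = 2 and 2). Filled marks are KLF4 under YAPi in both treatments and under JUNBi in TAM, KLF5 under YAPi and TAZi in ETH and under STAT3i in TAM, and TP63 under YAPi in ETH and under JUNBi in TAM.

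All knockdowns under 1 treatment share the same 2 Ctrli libraries, so the difference between treatments was tested as an interaction and the difference between siRNAs directly. The STAT3i effect on KLF5 was lower in TAM than in ETH by 0.94 ± 0.24 (adjusted p = 0.0065), 1 of 7 members tested beside 1.57% of all genes. That call was lost with edgeR (0.04), TMM factors (0.013) and effective lengths (-0.71, 0.19), and without 7 of the 8 libraries (0.017 to 0.13), all but ETH STAT3i replicate 1. For JUNBi the KLF5 interaction was -0.94 ± 0.25 (adjusted p = 0.047), with 0 of 8 members called in DESeq2, FOXC1 and KLF5 at an unadjusted p under 0.05, and 0.287% of all genes called. For TAZi it was -0.60 (adjusted p = 0.066), KLF5 being the only member with an adjusted p, with TP63 and KLF5 at an unadjusted p under 0.05 and 1.64% of all genes called. For YAPi 0 of 9 were called in DESeq2, with KLF5 at an unadjusted p under 0.05, beside 0.496% of all genes. edgeR called no member in any of these interactions.

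Between siRNAs in TAM, KLF5 and TP63 separated the knockdowns most firmly. KLF5 was higher in YAPi than in STAT3i by 1.18 ± 0.15 (adjusted p = 6.1e-13) and higher in TAZi than in STAT3i by 1.26 ± 0.13 (4.1e-19). TP63 was higher in YAPi than in JUNBi by 1.93 ± 0.26 (2.4e-11), 341.0 and 425.8 against 116.7 and 84.0 normalized counts. These 3 differences passed in every alternative, but all 3 cross the gene length split given above, which cannot be told apart from the siRNA. TP63 was also higher than in JUNBi under TAZi (1.28 ± 0.28, 3e-04) and STAT3i (1.43 ± 0.28, 1.7e-05), and KLF5 differed from JUNBi by 0.61 ± 0.15 in YAPi (8.1e-04), 0.66 ± 0.13 in TAZi (1.5e-05) and -0.58 ± 0.16 in STAT3i (0.0054). KLF4 was higher in YAPi than in STAT3i by 1.65 ± 0.44 (0.0015) and lower in STAT3i than in JUNBi by 1.56 (SE 0.45, 0.0082), while YAPi and JUNBi were 0.10 ± 0.34 apart (interval -0.57 to 0.77). OVOL1 was higher in YAPi than in STAT3i (100 against 9 counts, ratio 11.4, 5.78 to 25.7, adjusted p = 9.9e-04) and than in JUNBi (100 against 6, ratio 16.4, 7.29 to 45.8, 3.5e-04). YAPi against TAZi gave 0 of 8 calls in DESeq2 and 0 in edgeR, although 5 members, among them TP63 (0.64 ± 0.21), KLF4 (1.03 ± 0.41) and OVOL1 (100 against 17 counts, ratio 5.39), were at an unadjusted p under 0.05. All-gene shares called were 6.15% for YAPi against TAZi, 16.3% for YAPi against STAT3i, 11.1% for YAPi against JUNBi, 11.5% for TAZi against STAT3i, 4.24% for TAZi against JUNBi and 5.98% for STAT3i against JUNBi, and members called were 0 of 8, 3 of 9, 3 of 9, 1 of 7, 2 of 7 and 3 of 7.

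Single libraries mattered for the weaker of these. In YAPi against STAT3i, KLF4 (0.059 to 0.2) and OVOL1 (0.011 to 0.37) were lost without either YAPi library or STAT3i replicate 1. In STAT3i against JUNBi, KLF4 was lost without any 1 library (0.032 to 0.42), and in YAPi against JUNBi, OVOL1 was lost without either JUNBi library (0.033 and 0.024) and not tested without YAPi replicate 2. TP63 in TAZi against JUNBi was lost without either TAZi library or JUNBi replicate 2 (0.055 to 0.25), and in STAT3i against JUNBi without either STAT3i library or JUNBi replicate 2 (0.01 to 0.064). KLF5 against JUNBi was lost in YAPi without YAPi replicate 2 or either JUNBi library (0.039 to 0.29), in TAZi without either TAZi library (0.07 and 0.098) and in STAT3i without any 1 library (0.12 to 0.25). Effective lengths as offsets ended 5 of the 12 calls, those of KLF4 and OVOL1 in YAPi against STAT3i, KLF5 in YAPi against JUNBi, and KLF5 and KLF4 in STAT3i against JUNBi.

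The normalized counts give the order of the 10 ER-Src groups. KLF5 ran from 1559 ± 3.2 (SD, n = 2) in TAM TAZi and 1482 ± 188 in TAM YAPi, which overlapped, over 1224 ± 67 in TAM Ctrli, to 516 ± 42 in ETH Ctrli and 515 ± 39 in ETH STAT3i, which overlapped as well. TP63 was highest in ETH YAPi (505 ± 4.2) and ETH TAZi (469 ± 52), and ETH JUNBi (207 ± 6.8) and TAM JUNBi (100.3 ± 23.1) closed the order without overlap. For KLF4, TAM YAPi (103 ± 10.5), ETH YAPi (102 ± 26) and TAM JUNBi (95.7 ± 2.1) overlapped. ETH JUNBi (67.4 ± 22.9) came next, its higher library at 83.6 just above the lower ETH YAPi library at 83.3, and the neighbours below overlapped down to TAM Ctrli (21.6 ± 1.5). For OVOL1 both YAPi groups (40.4 ± 22.0 and 39.7 ± 20.6) stood clear of ETH TAZi (14.8 ± 5.5) and the rest.

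The AP-2 factors, GATA3, FOXC1 and SOX9 passed in none of the ER-Src comparisons in DESeq2. TFAP2A ran from 102.1 to 219.1 normalized counts over the 20 libraries and TFAP2C from 88.9 to 188.3. TFAP2A came nearest in YAPi against JUNBi in TAM (197.7 and 217.2 against 129.4 and 109.7 counts, 0.79 ± 0.28, adjusted p = 0.031). There edgeR called it (0.80, adjusted p = 0.0068), the only one of these 5 genes that edgeR called in ER-Src, as did 1 DESeq2 fit over all 10 groups (0.0018), which also called TFAP2A in YAPi against STAT3i (0.77, 0.0018). The antisense gene TFAP2A-AS1, which overlaps exons of TFAP2A, reached 5.42 TPM, so part of its reads cannot be assigned by strand. FOXC1 ran from 78.4 to 195.8 and came nearest in TAZi against Ctrli in ETH (0.90 ± 0.40, adjusted p = 0.16). GATA3 had 4 to 34 counts per library, and its intervals were wide, for example -2.16 to 1.49 for TAM against ETH in Ctrli. SOX9 had 0 to 25 counts per library. In TAM the SOX9 sum over the YAPi pair was 35 counts against 4 in Ctrli, a ratio of 4.95 (1.77 to 19.2), with no adjusted p given.

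Genes that these factors are known to work with were read from lists chosen with earlier results of these data known. Of 18 tested among 24 other epithelial lineage factors, 4 rose and 0 fell under YAPi in TAM (10.2% of all genes called), led by the ETS factors EHF (3.48) and ELF3 (2.13) and by GRHL3 (1.86), a paralogue of GRHL2. EHF and ELF3 also rose in TAM under TAZi (2.04 and 2.64) and JUNBi (2.06 and 1.98), and ELF3 fell under STAT3i (-2.19). In Ctrli, TAM raised 5 of 18 and lowered 0 (5.88% of all genes called), among them CEBPB (1.66) and RUNX1 (1.18). Of 6 repressors of the epithelial state such as ZEB1 and SNAI2, 1 rose with TAM in Ctrli, beside 5.88% of all genes. In TAM, DESeq2 called 0 under YAPi, TAZi or JUNBi, beside 10.2%, 3.22% and 6.71% of all genes. A count of 0 among 6 genes cannot be told from such shares. Under STAT3i in TAM 1 rose (SNAI2, 0.76) and 1 fell, beside 8.09% of all genes.

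Of 12 basal and p63-linked genes, all tested, 6 rose and 1 fell under YAPi in TAM, and 8 rose and 1 fell in ETH, beside 10.2% and 11.4% of all genes called. PERP, a junction gene and p63 target, rose by 1.86 and 1.89, while the basal keratin KRT14 fell by 1.54 and 1.06. Under JUNBi in TAM, where TP63 fell and 6.71% of all genes were called, 1 rose (PERP, 0.43) and 3 fell, namely KRT14 (-2.04), the hemidesmosome collagen COL17A1 (-1.07) and the laminin chain LAMB3 (-0.83). With TAM under TAZi, where TP63 fell too and 7.34% of all genes were called, 7 fell and 1 rose, with the Notch ligand JAG2 at -2.07 and KRT17 at 0.67. In Ctrli, where TP63 was not called, TAM raised 4 and lowered 2, beside 5.88% of all genes, with KRT14 at 0.90, LAMB3 at 0.74 and DST at -0.66. The median of these 12 was 0.36 under YAPi in TAM, -0.33 under JUNBi in TAM and -0.42 with TAM under TAZi, beside 0.01, 0.02 and 0 over all genes tested.

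GRHL2 itself was at most at 2 counts, yet genes that it is known to regulate were read in ER-Src at a summed 162 to 273 TPM. Of 12 such genes, 5 rose and 1 fell under YAPi in TAM, beside 10.2% of all genes called, where the claudin CLDN4 rose by 5.70, E-cadherin (CDH1) by 1.58 and MAL2 by 0.97, and EPCAM fell by 1.07. CDH1 also rose in TAM under STAT3i (0.90) and JUNBi (0.89). The median of those tested was 0.68 under YAPi in TAM, -0.22 under TAZi, 0.12 under STAT3i and -0.08 under JUNBi, beside 0.01, 0, 0.02 and 0.02 over all genes tested. In ETH under STAT3i no gene of any of these lists was called in DESeq2, beside 0.179% of all genes. Lists this short cannot tell that result from the share over all genes.

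In MDA-MB-231 set 1, SOX9 was lower than in the Ctrli libraries under all 4 siRNA treatments and KLF4 under TAZi and YAPi_TAZi, but the knockdowns and Ctrli also differ in library type, and the 2 cannot be told apart. SOX9 had 325.5 and 320.0 normalized counts in set 1 Ctrli, 94.1 and 100.3 in YAPi, 81.7 and 91.5 in TAZi, 67.0 and 69.9 in YAPi_TAZi, and 38.1 and 55.7 in TEADi. The log2 values were -1.83 ± 0.24 (adjusted p = 1.8e-12), -1.98 ± 0.19 (3.8e-25), -2.35 ± 0.22 (2e-26) and -2.86 ± 0.31 (4.1e-19). In the Ctrli libraries of set 2 SOX9 was at only 128.5 and 131.1, so the 2 pairs of control libraries differed by more than set 2 Ctrli and YAPi did. KLF4 was at -1.26 ± 0.23 under TAZi (1.6e-07) and -0.98 ± 0.22 under YAPi_TAZi (2.9e-05), with 143.9 and 144.7 counts in set 1 Ctrli but 30.1 and 14.4 in set 2 Ctrli.

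KLF5 was higher under TAZi, with 139.4 and 188.9 normalized counts against 70.7 and 70.5 (1.14 ± 0.24, adjusted p = 1e-05). TFAP2C was higher under YAPi_TAZi, with 90.3 and 84.3 against 46.9 and 47.7 (0.76 ± 0.24, 0.0052), in a run where a local dispersion trend stood in for the parametric one that could not be fitted. On the TPM scale, which holds the tail-less RNAs in its total, TFAP2C pointed the other way, with 3.70 and 5.27 TPM against 7.15 and 7.09, and KLF5 overlapped, with 5.77 and 12.02 TPM against 9.41 and 9.63. Members called were 1 of 7 under YAPi, 3 of 8 under TAZi, 3 of 8 under YAPi_TAZi and 1 of 7 under TEADi, beside 24.2%, 32.2%, 35.5% and 28.1% of all genes, so most of these shares lie near the background. With the Ctrli libraries of both sets as controls, 1 of the 8 calls was left, SOX9 under TEADi, and the SOX9 values under YAPi, TAZi and YAPi_TAZi were -1.19 (0.16), -1.36 (0.12) and -1.72 (0.04). Without either set 1 Ctrli library the KLF4, KLF5 and TFAP2C calls were lost (KLF4 at 0.1 and 0.26, KLF5 at 0.096 and 0.11, TFAP2C at 0.55 and 0.54), KLF5 also without TAZi replicate 2 (0.059), KLF4 under YAPi_TAZi without replicate 2 of it (0.038), and TFAP2C without either YAPi_TAZi library (0.23 and 0.23).

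**Figure D5:**
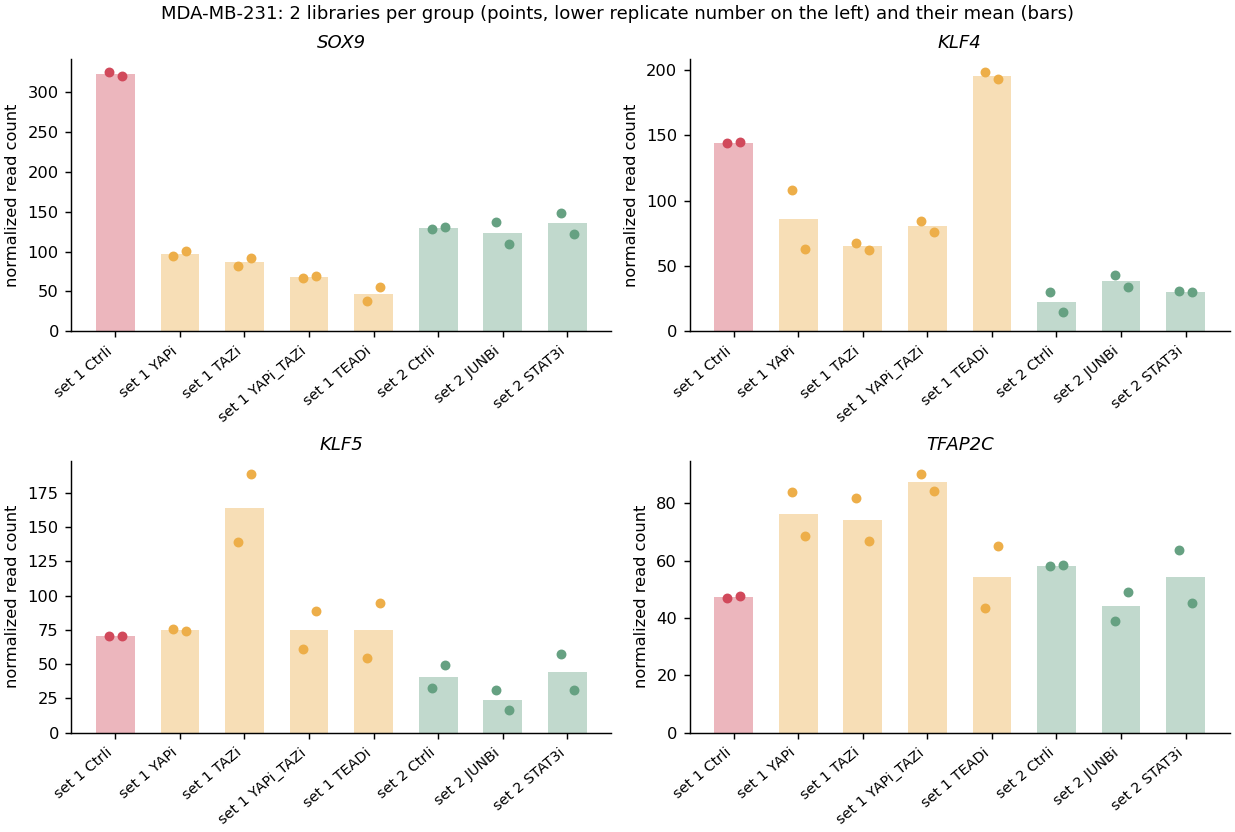
Normalized read counts of SOX9, KLF4, KLF5 and TFAP2C in the 8 MDA-MB-231 groups, with 2 libraries per group as points and their mean as bars, set 1 Ctrli in red, set 1 knockdowns in orange and set 2 in green. For SOX9 and KLF4 the set 1 and set 2 Ctrli libraries stand far apart, 320.0 and 325.5 against 128.5 and 131.1 for SOX9, and KLF4 under TEADi, at 198.6 and 193.1, is above the other set 1 knockdowns.

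Within set 1, each knockdown was also compared with the other 3 together, which share the library type, with the replicate number as a block because same-numbered libraries deviated together. KLF4 was higher in TEADi than in the other 3, with 198.6 and 193.1 normalized counts against 62.5 to 108.4 in the other 6 libraries (1.36 ± 0.30, 2.56-fold, adjusted p = 5.4e-04). Set 1 Ctrli, of the other library type, lay between at 143.9 and 144.7. This comparison holds no control, so it cannot tell which side moved. KLF4 was 1 of 5 members tested, beside 1.84% of all genes. KLF4 was lost with edgeR (0.013) and effective lengths (0.015), without TEADi replicate 2 (0.82), YAPi replicate 2 (0.011) or TAZi replicate 1 or 2 (0.01 and 0.014), and was not tested without TEADi replicate 1. KLF5 under TAZi was at 1.16 ± 0.29 (adjusted p = 0.016), and 0 of 4 members were called there in DESeq2, beside 0.377%. SOX9 under TEADi was at -0.85 ± 0.38 (interval -1.59 to -0.11, adjusted p = 0.23), the lowest of the set 1 groups. Under YAPi no member got an adjusted p (0.597% of all genes called) and under YAPi_TAZi 0 of 4 were called (1.11%), with none at an unadjusted p under 0.05 in either. edgeR tested 5 members and called 0 in each of these 4 comparisons.

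In set 2, DESeq2 called no member under JUNBi (1 tested, 3.99% of all genes called) or STAT3i (none tested, 0.237% of all genes), and no member was at an unadjusted p under 0.05. edgeR tested 7 members in each and called 0, as did DESeq2 when every gene averaging 10 counts or more was kept. KLF4 under JUNBi was at 0.88 ± 0.60 in that last run, with 42.8 and 33.8 normalized counts against 30.1 and 14.4. SOX9 was at 0.04 ± 0.30 under JUNBi and 0.14 ± 0.31 under STAT3i.

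Finally, MDA-MB-231 was set against TAM-treated ER-Src under the same siRNA, in libraries with a similar share of tail-less RNAs. The sample titles place the 2 lines in separate sets, so cell line and set cannot be told apart. Full and effective gene length differed by 48.0 bases in the first replicates of these MDA-MB-231 groups and 74.6 in the second. In the ER-Src libraries the difference was 49.48 or 49.49 bases. TP63 was nearly absent from MDA-MB-231, with 0 counts over the YAPi pair against 922 in ER-Src, at least 45.7-fold lower in CPM when 3 counts over the pair stand in for 0. Under TAZi it had 5 counts against 538, a ratio of 0.0557 (0.018 to 0.131). KLF5 was lower by 3.04 (SE 0.26, 3.50 and 4.07 TPM against 18.98 and 21.14) under YAPi and by 1.94 (SE 0.21, 5.77 and 12.02 TPM against 23.1 and 25.7) under TAZi. TFAP2A was lower by 2.78 (SE 0.58) under YAPi and 2.00 (SE 0.62) under TAZi, on only 13 counts against 493 and 15 against 294. OVOL1 had 0 counts against 100 under YAPi, at least 4.96-fold lower (adjusted p = 0.0098). SOX9 went the other way, at 2.45 and 4.50 TPM against 0.09 and 0.14 under YAPi (4.01 ± 0.52, adjusted p = 1.7e-13), and at 97 against 4 counts under TAZi, a ratio of 145 (54.9 to 544). KLF4 was higher under TAZi by 1.63 ± 0.51 (adjusted p = 0.0057) and under YAPi stood at 1.00 ± 0.44 (0.066). TFAP2C, FOXC1 and GATA3 did not pass in either comparison.

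Called were 5 of 9 members under YAPi, beside 25.4% of all genes, and 5 of 8 under TAZi, beside 28%. Of the 12 basal genes 10 were lower and 1 higher under either siRNA, and of the 12 GRHL2-linked genes 10 and 9 were lower and 0 and 1 higher. KLF5, SOX9 and, under TAZi, TP63 passed in every alternative. KLF4 under TAZi was lost without any 1 library (0.055 to 0.3), TFAP2A under TAZi likewise (0.02 to 0.27), TFAP2A under YAPi without either ER-Src library (0.018 and 0.05), and OVOL1 without any 1 (0.066 to 0.44). Effective lengths ended the KLF4 (0.017), TFAP2A (0.059) and OVOL1 (0.013) calls, the latter 2 under TAZi and YAPi. The lines also differ in depth, with 1411304 to 2784605 counts in the set 1 knockdowns, which limits the members with few reads.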

How the data were processed

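RNA-seq of 36 libraries (18 groups of 2) was analysed from 36 gene tables. Per the study's methods, the authors removed adapters and bases of low quality, aligned reads to hg38 with STAR and GENCODE v30 annotation, allowing several alignments per read, and ran RSEM, whose expected counts and TPM per gene were deposited. The labels name 1 library kit for all samples, although the libraries differ in their share of tail-less RNAs. The strand setting is not given in the sources used here.

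Of 61471 identifiers per table, 746 that are not Ensembl genes, at most 0.109% of counts, were left out. Symbols were matched to 93.1% of the others. Expected counts were rounded and fitted per comparison with DESeq2 1.42.0 in R 4.3.3 (Wald test, default size factors and independent filtering), with calls at an adjusted p under 0.01, as the study's methods set it. A member removed by the filter is given as not tested. Alternatives were edgeR 4.0.16 (quasi-likelihood), TMM factors, a mean count of at least 10, effective lengths as offsets, a replicate block, joint fits, other controls, and each library left out in turn, where the lone library is assumed to vary like the other group. Scripts were tested on simulated data. Intervals are at 95% and cover the fit's error, or counting error only for ratios of low counts (exact, and a count of 0 was set to 3). Reads without molecular identifiers are not independent molecules. Promoter sequences came from RefSeq on GRCh38.p14, where 6 of 10 members had an entry. Plots and ratios used Python 3.11.15, scipy 1.17.1 and matplotlib 3.10.9.

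All 10 members are named in every fit. Of each list, at most the 4 called genes of largest change whose mean normalized count reached 100 are named. Some genes that these rules cover are not reported here. The members and lists were chosen with earlier results of these data known. The pair of set 1 Ctrli libraries was nearest to counting noise (chi-square per degree of freedom 2.24, against 6.10 to 59.2 in other groups), yet differed by more, and was kept as 2 libraries. The replicate number was a block only among the set 1 knockdowns, where same-numbered libraries deviated together (r = 0.783 to 0.819) and share the difference between full and effective gene length (48.0 bases in replicate 1, 74.57 in replicate 2).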

Additional observations from a re-analysis of the deposited data

Results flagged for a closer look

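KLF5 under STAT3i differed between treatments by the test of the difference itself, at -0.94 ± 0.24 on the log2 scale (TAM effect minus ETH effect, adjusted p = 0.0065, DESeq2). Its normalized read counts were 630.8 and 653.8 in TAM STAT3i against 1271 and 1177 in TAM Ctrli, and 487.7 and 542.4 in ETH STAT3i against 545.4 and 486.5 in ETH Ctrli. Both TAM STAT3i libraries were under both TAM Ctrli libraries, while the ETH groups overlapped. The call was lost in 10 of 14 alternatives, among them edgeR (adjusted p = 0.04), TMM factors (0.013) and effective lengths (0.19). Under JUNBi the KLF5 interaction was also -0.94 ± 0.25 but was not called (adjusted p = 0.047), and the 2 interactions were not tested against each other. Groups of 2 libraries are too small for a test of single outlying libraries.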

How the results depend on the processing

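No value of a called member changed sign in the refits, although for TFAP2C under YAPi_TAZi in set 1 the TPM values pointed the other way. Of 45 calls of a member, edgeR kept 40, TMM factors 43, the mean count filter 45, effective lengths 32, the joint fits 22 of 26 and 6 of 8, and ETH in place of TAM libraries 9 of 10. Among leave-one-out refits, 81 call checks held and 107 were lost, and the cause was not tested. Among member values without a call, 59 moved by more than 1 SE in these refits, 7 with effective lengths and 19 with the Ctrli libraries of both sets.

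For TAM knockdowns the 5 calls became 1 with the replicate block, which kept KLF5 under STAT3i and ended KLF4 (0.013) and OVOL1 (0.025) under YAPi and TP63 (0.011) and KLF4 (0.02) under JUNBi, and 0 to 5 without single libraries. For ETH knockdowns the 5 became 3 with the block and 0 to 5. The 1 interaction call became 0 with edgeR, TMM factors and effective lengths, 2 with the block and with the joint fit, and 0 to 2 without single libraries. The 2 calls of TAM against ETH within knockdowns ranged from 0 to 3. The 12 calls between knockdowns became 7 with effective lengths and 7 with the block, and ranged from 6 to 10. The 8 calls against set 1 Ctrli became 5 with the block and 1 with the Ctrli libraries of both sets, and ranged from 4 to 9. The 1 call among set 1 knockdowns became 0 with edgeR and effective lengths, stayed 1 with no replicate block, and ranged from 0 to 1. The KLF5 call of TAM against ETH in Ctrli stayed 1 throughout and set 2 stayed at 0. The 10 cell line calls became 7 with effective lengths, 8 with the block and 9 with ETH libraries, and ranged from 8 to 9 without single libraries.

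Outside the set 1 knockdowns no label ties same-numbered libraries together. Between 2 ER-Src groups their deviations correlated with r from -0.33 to 0.593, positive for TAM against ETH under each of the 5 siRNAs (0.15 to 0.593) and for each ETH knockdown against ETH Ctrli (0.176 to 0.409) but not for all TAM pairs. The r was -0.059 to 0.007 against set 1 Ctrli, and -0.117 and 0.071 between lines. The block ended 17 of 44 calls. For set 2 alone, no paired analysis was possible because the set 2 Ctrli libraries carry other replicate numbers than the set 2 knockdowns.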

Other observations

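Markers of the luminal and mesenchymal states, read beside the lineage factors, moved in part in ER-Src. Of 9 mesenchymal markers tested under YAPi, 3 rose and 1 fell in TAM and 3 rose and 0 fell in ETH (10.2% and 11.4% of all genes called), with the collagen chain COL6A1 at 1.04 and 1.72, fibronectin (FN1) at 0.95 and 1.59 and fibrillin (FBN1) at 0.75 and 0.77 on the log2 scale. The receptor AXL fell under YAPi and TAZi in TAM (-0.47 and -0.95). Of 7 luminal markers tested under YAPi, 0 rose and 1 fell in either treatment, the simple keratin KRT18 at -0.69 in TAM and -0.94 in ETH, and its partner KRT8 rose under JUNBi (0.64 in TAM and 1.14 in ETH). In MDA-MB-231 against ER-Src, KRT19 was higher by 6.80 under YAPi and 6.34 under TAZi.

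TP63 had 18 counts over the set 1 Ctrli pair of MDA-MB-231 and 0, 5, 0 and 1 over the YAPi, TAZi, YAPi_TAZi and TEADi pairs. At the smaller depth of the knockdowns the limit set by 0 counts is at or above the Ctrli level, so no difference was detectable.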
